A study of Mus musculus with 16 samples.

Results

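Hearts of mouse embryos that had lost 3 of the 4 alleles of Ing4 and Ing5 were compared with wild-type hearts at embryonic day 10.5, by RNA sequencing of whole hearts. The members were chosen by genotype: the 4 hearts of Ing4+/- Ing5-/- embryos (1 Ing4 allele and both Ing5 alleles lost) and the 4 wild-type hearts, 8 of the 16 hearts in the series. The other 8 hearts were 4 of Ing4+/- and 4 of Ing5-/- embryos. They entered the model for the spread between hearts, and near the end the called genes and some lists are given in them too. The Ing4+/- Ing5-/- hearts are called mutant hearts below. Hearts are listed in the order of their replicate numbers 1 to 4, which carry no meaning beyond the name. The mutant hearts came from litters 1, 4, 6 and 7, and the wild-type hearts from litters 4, 5, 5 and 6. A promoter or cell type that drives a deletion was not named in the labels, and all cells of a heart were sequenced together.

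Ing4 and Ing5 encode members of the inhibitor of growth family. These proteins hold a PHD finger that binds trimethylated lysine on histone H3 and are subunits of MYST-family acetyltransferase complexes (HBO1 for both, and MOZ or MORF for ING5). At this stage the heart is a beating tube that is forming chambers, trabeculae and endocardial cushions, and it takes its oxygen from the blood it pumps, before coronary vessels form. Low oxygen stabilises the HIF factors, which raise genes of glycolysis, vessel growth and collagen hydroxylation. The first macrophages of the heart derive from the yolk sac and express the receptor Csf1r and the factor Spi1 (PU.1).

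The targeted genes were read first, as a check of the labels. Ing5, on chromosome 1 (93803926 to 93822101, GRCm38, gene ID 66262), had 19.8, 25.1, 19.9 and 19.2 CPM in the mutant hearts and 35.1, 36.9, 28.9 and 33.2 CPM in the wild-type ones, so the groups did not overlap and reads remained in all 4 mutants. It fell, by a log2 difference of -0.68 ± 0.13 (edgeR adjusted p = 0.0122). Ing4 stood at 35.7, 36.1, 32.5 and 32.9 CPM in the mutant and 42.9, 28.2, 44.4 and 42.6 CPM in the wild-type hearts, where wild-type 2 was the lowest of all 8. Its log2 difference was -0.20 ± 0.12 (edgeR adjusted p = 0.553), so the loss of 1 allele was not called. The library labelled Ing5-/- 1 held Ing5 at 29.3 CPM, inside the wild-type range, and hearts 2 to 4 of that genotype lay between 18.5 and 23.7 CPM. Which exons the alleles lack was not read from these gene counts. Total counts of the 8 hearts ranged from 19753100 to 29660043. The defining markers of cardiomyocytes were present at a sum of 21460 to 25160 CPM over the 8 hearts, and those of skeletal muscle at 0 to 0.102 CPM. Mutant 2 stood apart: 4.64% of its reads came from haemoglobin genes, against 1.59%, 1.81% and 0.763% in mutants 1, 3 and 4 and 0.871% to 1.16% in the wild-type hearts. By their Xist and Y-linked reads, mutant 2 and wild-type 2 and 4 were of female type and the others of male type.

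Of 15785 genes tested, 135 (0.855%) were called at an edgeR adjusted p under 0.05, 110 of them higher (0.697%) and 25 lower (0.158%) in the mutant hearts. These shares are the background for each list count below. The lists were chosen with earlier results of these data known. A list count beside its background share is therefore a description and no test of the list. CPM is a gene's read count scaled to a common library size, and differences are log2, mutant minus wild-type, ± SE. The genes called higher had a median log2 difference of 1.06, with 58 of them over 2-fold, and a median wild-type level of 5.04 CPM. The 25 genes called lower had a median log2 difference of -0.64, with 2 over 2-fold, and a median wild-type level of 32.9 CPM. All 25 of the lower genes and 109 of the 110 higher genes (Ankzf1 is the exception) did not overlap between the groups, as 1604 of all genes tested (10.2%) did not. That 10.2% is the background wherever groups are said below not to overlap. Before adjustment, 1793 genes had a p under 0.05. Over all genes tested the median difference was 0.0027 and 50.8% were higher in the mutants. By these medians the genes called higher had a lower wild-type level and larger differences than the genes called lower. Some of them stood at a high level, such as Pdk1 at 247 to 275 CPM in wild-type hearts. The share of genes under 1 CPM in wild-type hearts was 23.6% among the genes called higher, 13.3% among all genes tested and 0% among those called lower. Such genes can pass the filter by their reads in other groups, and a fall from so few reads can rarely be called. The contrast in level is therefore partly set by the method.

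**Figure D1:**
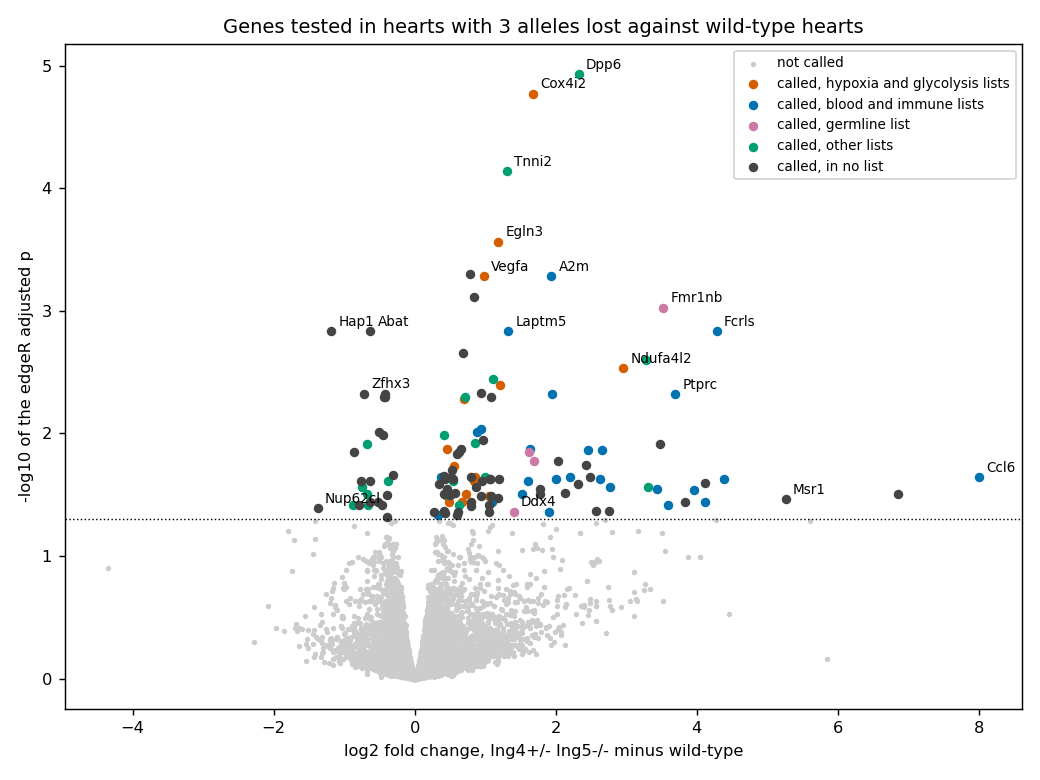
Log2 fold change (x axis, mutant minus wild-type) and -log10 of the edgeR adjusted p (y axis) of 15785 genes, 4 hearts a group. Coloured points are the 135 called genes by the list they belong to, the dotted line marks an adjusted p of 0.05, and points to the right, 110 of 135, are higher in the mutant hearts. Ccl6, at the far right, has no read in any wild-type heart, so its fitted fold change is no measurement.

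These calls depended on which hearts were used. With each of the 8 hearts left out in turn, 37 to 122 genes were called: 122, 44, 77 and 82 without mutants 1, 2, 3 and 4, and 60, 60, 37 and 41 without wild-types 1, 2, 3 and 4. Of the 135, 30 kept their call in all 8 of these fits. Leaving out the library labelled Ing5-/- 1, which is in neither group, gave 321 calls, and a fit of the 8 compared hearts alone gave 465. Without 3 libraries that lay far out on the first 3 principal components (Ing4+/- 4, Ing5-/- 1 and mutant 2) 315 were called. Adding litter to the model left 15 calls, and the 135 included 14 of them (A2m, Aldoc, Apoe, Arrdc4, Cox4i2, Cx3cr1, Dpp6, Egln3, Galk1, H2-Ab1, Mgarp, Slc24a2, Tgfb1 and Tnni2), and all 135 kept their sign. Litter 4 held mutant 2 and wild-type 1, litter 6 held mutant 3 and wild-type 4, and the other hearts compared had no partner from their own litter, so litter and genotype are largely confounded.

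Genes of the response to low oxygen made up the first group. Of 24 hypoxia-inducible genes outside glycolysis, all measured, 10 were called higher and 0 lower, against 0.697% of all genes called higher. The median difference of the list was 0.47, and 22 of its 24 members were above 0. Their promoters are shown first, because the hypoxia response element has the core ACGTG or GCGTG. RefSeq (GRCm38.p6) gave promoters for 95 of the 135 called genes. In the 250 bases before the start, this core (either strand) lay in 9 of 12 promoters (75.0%) of the called hypoxia and glycolysis genes, in 53.7% of the 15076 promoters of genes tested and in 45.4% of 97 promoters of all genes called higher. The 12 promoters belong to 9 genes, as a gene can have more than 1. This motif too was picked with the lists known, so the shares are a description. The 4 promoters below belong to called genes with the core at 1 to 6 places. Capitals mark the core or its reverse complement, CACGT or CACGC, which can overlap. A match describes the letters and not a bound site.
P4ha2 (chr11:54100674-54100923, plus strand): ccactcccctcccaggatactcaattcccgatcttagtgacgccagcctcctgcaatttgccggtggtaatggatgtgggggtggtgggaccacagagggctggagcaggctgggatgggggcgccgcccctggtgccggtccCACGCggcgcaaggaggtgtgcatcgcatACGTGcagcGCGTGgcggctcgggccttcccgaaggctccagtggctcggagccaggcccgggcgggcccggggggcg
Egln3 (chr12:54203875-54204124, minus strand): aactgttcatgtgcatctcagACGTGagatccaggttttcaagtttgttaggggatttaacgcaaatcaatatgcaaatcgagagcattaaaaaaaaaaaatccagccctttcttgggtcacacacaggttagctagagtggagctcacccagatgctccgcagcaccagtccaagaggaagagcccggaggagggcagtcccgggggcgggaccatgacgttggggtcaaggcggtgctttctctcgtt
Pgk1 (chrX:106186850-106187099, plus strand): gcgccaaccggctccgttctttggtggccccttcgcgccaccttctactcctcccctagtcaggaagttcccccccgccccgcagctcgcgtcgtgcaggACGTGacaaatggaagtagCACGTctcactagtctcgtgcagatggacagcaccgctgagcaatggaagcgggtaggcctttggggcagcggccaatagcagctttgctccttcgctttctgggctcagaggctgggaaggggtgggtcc
Fam162a (chr16:36071562-36071811, minus strand): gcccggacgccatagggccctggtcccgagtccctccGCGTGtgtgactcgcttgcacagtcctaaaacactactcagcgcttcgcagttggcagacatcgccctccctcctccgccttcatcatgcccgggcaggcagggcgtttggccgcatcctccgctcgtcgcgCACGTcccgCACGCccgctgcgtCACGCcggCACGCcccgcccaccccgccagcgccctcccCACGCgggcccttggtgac

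The first members act in mitochondria and in oxygen sensing. Cox4i2 (gene ID 84682, chromosome 2: 152753916 to 152765039, GRCm38) encodes an alternative subunit of cytochrome c oxidase. It stood at 14.9, 18.4, 13.01 and 17.9 CPM in the mutant and 4.96, 6.04, 4.47 and 4.53 CPM in the wild-type hearts, a difference of 1.68 ± 0.16 (edgeR adjusted p = 1.70e-05). The gap between the lowest mutant and the highest wild-type heart was wider than the range of either group. Ndufa4l2, a mitochondrial protein that lowers complex I activity in hypoxia, stood at 13.01, 21.3, 11.5 and 18.9 CPM against 1.53, 3.59, 1.21 and 1.88 CPM, a difference of 2.96 ± 0.42 (edgeR adjusted p = 0.00294). Egln3, the HIF prolyl hydroxylase PHD3 and itself a HIF target, stood at 24.8, 28.1, 23.6 and 30.9 CPM against 11.96, 11.6, 13.5 and 10.2 CPM, a difference of 1.18 ± 0.14 (edgeR adjusted p = 2.73e-04). The groups of all 3 genes were far apart, with gaps wider than the range of the wild-type hearts. Vegfa, the main vessel growth factor, stood at 176, 240.4, 192 and 179 CPM against 102, 90.1, 97.2 and 111 CPM and rose by 0.98 ± 0.12 (edgeR adjusted p = 5.24e-04), with mutant 2 highest.

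Smaller rises were found in genes of collagen hydroxylation and in other targets. P4ha2 and P4ha1, the catalytic subunits of collagen prolyl hydroxylase, rose by 0.73 ± 0.15 (edgeR adjusted p = 0.0313) and 0.46 ± 0.10 (edgeR adjusted p = 0.0325). Plod2, a collagen lysyl hydroxylase, rose by 0.48 ± 0.11 (edgeR adjusted p = 0.0363). Fam162a, a mitochondrial protein, rose by 0.46 ± 0.09 (edgeR adjusted p = 0.0135). Bhlhe40, a transcriptional repressor, went from 15.4 ± 0.818 CPM in wild-type to 25.2 ± 4.60 CPM in mutant hearts and rose by 0.71 ± 0.12 (edgeR adjusted p = 0.00523), and Ndrg1 rose by 0.84 ± 0.17 (edgeR adjusted p = 0.0245). Outside the list, Bnip3l, a receptor for the removal of mitochondria, rose by 0.57 ± 0.12 (edgeR adjusted p = 0.0307), and its annotated pseudogene Bnip3l-ps by 0.52 ± 0.11 (edgeR adjusted p = 0.0313). These 2 sequences are near copies, so their reads may be split between them. Mgarp, a mitochondrial protein, stood at 29.01, 34.8, 21.4 and 32.8 CPM against 14.5, 15.1, 14.5 and 12.1 CPM and rose by 1.07 ± 0.21 (edgeR adjusted p = 0.0237). The members Bnip3 at 0.90 ± 0.22 (edgeR adjusted p = 0.0986) and Ankrd37 at 0.52 ± 0.18 (edgeR adjusted p = 0.234) were not called. Car12 had a difference of -0.53 ± 0.61 (edgeR adjusted p = 0.807). Cox4i2, Ndufa4l2, Egln3, Vegfa and Bhlhe40 kept their calls without each of the 8 hearts. Over the list 9, 6, 9 and 6 members were called without mutants 1 to 4, and 7, 8, 5 and 5 without wild-types 1 to 4. Cox4i2 and Egln3 were the 2 members called with litter as a block.

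Glycolytic genes were called in the same direction, with a smaller list median. Of 25 measured genes for glycolytic enzymes and for glucose or lactate transport, 5 were called higher and 0 lower, against 0.697% of all genes called higher. The list median was 0.39, and 22 members were above 0. Slc2a3, a neuronal-type glucose transporter (GLUT3), stood at 174, 244, 129 and 202 CPM against 90.9, 81.7, 84.8 and 104 CPM and rose by 1.05 ± 0.21 (edgeR adjusted p = 0.0323). Aldoc, an aldolase isoform, stood at 17.4, 22.2, 12.3 and 17.3 CPM against 8.86, 7.83, 6.83 and 6.52 CPM and rose by 1.20 ± 0.19 (edgeR adjusted p = 0.00403). Eno2, an enolase isoform, stood at 8.20, 9.84, 7.51 and 7.64 CPM against 3.62, 4.45, 5.04 and 5.19 CPM and rose by 0.86 ± 0.17 (edgeR adjusted p = 0.0229). Slc2a3 and Eno2 lie within 10 Mb of Ing4. Of the 110 genes called higher 4 lay this near to Ing4 and 2 to Ing5, as did 163 and 88 of all 15785 genes tested. Whether the position near a targeted gene plays a part in any of these calls was not tested. Pgk1, phosphoglycerate kinase, stood at 239.9, 245, 201 and 242 CPM against 177, 175, 124 and 154 CPM and rose by 0.56 ± 0.11 (edgeR adjusted p = 0.0183). Pdk1, a kinase that inhibits pyruvate dehydrogenase, stood at 439, 443, 342 and 433 CPM against 275, 247, 258 and 259 CPM and rose by 0.67 ± 0.15 (edgeR adjusted p = 0.0363). Mutant 3 had the lowest of the mutant values for all 5 genes. Aldoc kept its call without each heart and with litter as a block. Over the list 3, 1, 5 and 2 members were called without mutants 1 to 4, and 2, 2, 1 and 1 without wild-types 1 to 4. In contrast, 16 of the 25 were called without Ing5-/- 1, 16 in the fit of the 8 compared hearts and 13 without the 3 libraries. Slc2a1, the main glucose transporter of embryonic tissues, and Ldha, lactate dehydrogenase A, had differences of 0.37 ± 0.15 (edgeR adjusted p = 0.317) and 0.43 ± 0.14 (edgeR adjusted p = 0.209), with the groups not overlapping.

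Oxidative metabolism did not rise with them. Of 21 genes of the tricarboxylic acid cycle and 25 nuclear genes of the respiratory chain 0 were called, and 42 of the 46 were below 0 in the mutants, with list medians of -0.07 and -0.08. The per-heart medians of both lists overlapped between the groups. In fatty acid oxidation 1 of 20 genes was called: Cd36, the fatty acid transporter and scavenger receptor, at 67.8, 75.8, 66.8 and 72.7 CPM against 51.5, 51.9, 54.2 and 54.1 CPM, rose by 0.42 ± 0.08 (edgeR adjusted p = 0.0103). It lost its call without mutant 2 (adjusted p = 0.0508). Lists of cholesterol synthesis (22 genes) and of fatty acid synthesis (16 genes) held 0 called genes and had medians of 0.11 and 0.08. Galk1, galactokinase, was at 135, 136, 113 and 138 CPM against 80.8, 92.6, 82.6 and 73.8 CPM and rose by 0.66 ± 0.12 (edgeR adjusted p = 0.0135). Of the sugar-sensing arrestin list, with 10 genes, Arrdc4 fell and is described with the lower genes.

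**Figure D2:**
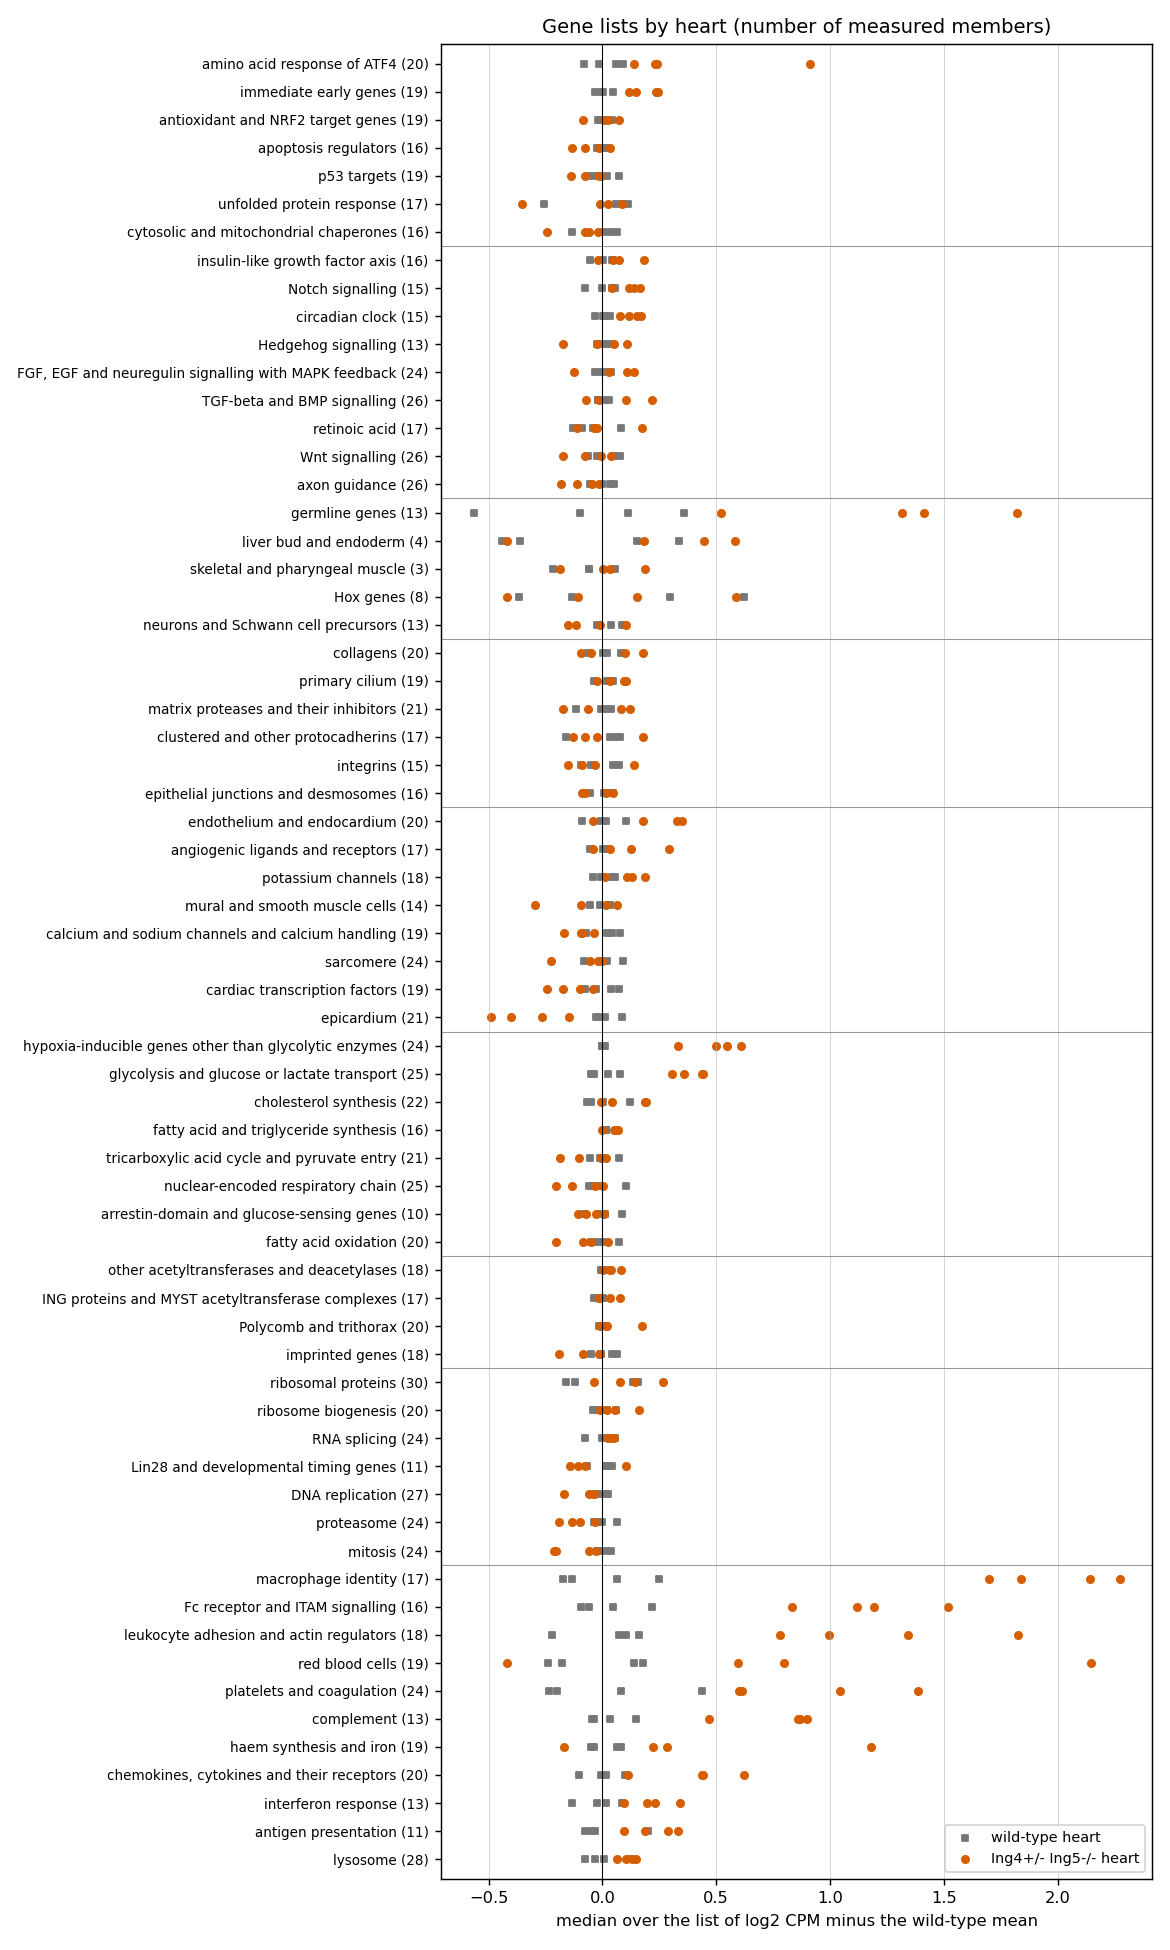
Median over each of 65 gene lists of log2 CPM minus the wild-type mean (x axis), in the 4 mutant hearts (circles) and the 4 wild-type hearts (squares), with the number of measured members beside each name. In 13 lists the 4 mutant hearts lie above all wild-type hearts and in 3 below (epicardium, and by very narrow margins DNA replication and mitosis).

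Genes of macrophages and other leukocytes formed the second group, which held the largest fold changes among the called genes. Of 17 measured macrophage genes 5 were called higher and 0 lower, with a list median of 2.20, against 0.697% of all genes called higher. The members called were Ptprc (the leukocyte antigen CD45), Cx3cr1 (the fractalkine receptor), Spi1, Fcgr1 and Csf1r. In single hearts the median of the list stood 1.70, 2.14, 2.28 and 1.84 above the wild-type mean in the mutants, and the wild-type hearts lay between -0.17 and 0.25. These medians are partly set by the low-count filter, which 17 of the 21 list members passed. Members near 0 in wild-type hearts, such as C5ar1 (0.0116 CPM), could pass only by their reads in other genotypes. Without the filter the list median was 1.91. In whole hearts more cells of a type and more RNA per cell cannot be told apart. The summed level of 7 defining macrophage markers was 20.8 to 36.3 CPM in the mutant and 4.97 to 7.98 CPM in the wild-type hearts, and none of them was at 0 in every wild-type heart. The sum of all 17 list members was closer between the groups, at 55.2 to 78.0 CPM against 39.1 to 54.9 CPM. Of the 17 members 15 were above 0, and the 2 below were Lyz2 (-0.19 ± 0.17, mean 23.1 CPM in wild-type hearts) and Maf (-0.19 ± 0.37, mean 10.7 CPM).

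PU.1, encoded by Spi1 of the macrophage list, binds a purine-rich core, GAGGAA. The promoters of 3 called genes that hold this core are shown, with the core or its reverse complement in capitals. The core lay in 8 of 14 promoters (57.1%) of the called macrophage, complement, Fc receptor and leukocyte adhesion genes. It lay in 22.1% of the promoters of genes tested and in 32.0% of those of all genes called higher. The 14 promoters belong to 11 genes. The lists were known when the motif was picked, so the shares are a description. Another motif, the GATA letters AGATAA, lay in 2 of these 14 promoters (14.3%) and in 6.1% of the promoters of genes tested. Whether PU.1 acts on these genes was not tested.
Fcrls (chr3:87263525-87263774, minus strand): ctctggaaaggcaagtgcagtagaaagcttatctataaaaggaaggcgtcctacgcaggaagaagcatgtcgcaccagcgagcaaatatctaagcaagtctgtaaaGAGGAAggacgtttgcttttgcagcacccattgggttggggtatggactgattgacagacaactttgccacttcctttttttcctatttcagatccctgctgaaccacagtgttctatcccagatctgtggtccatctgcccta
C1qc (chr4:136892915-136893164, minus strand): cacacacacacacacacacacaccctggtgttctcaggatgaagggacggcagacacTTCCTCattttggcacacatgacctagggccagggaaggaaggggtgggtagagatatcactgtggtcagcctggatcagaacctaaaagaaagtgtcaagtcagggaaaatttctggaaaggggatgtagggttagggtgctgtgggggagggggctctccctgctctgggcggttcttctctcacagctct
Laptm5 (chr4:130913066-130913315, plus strand): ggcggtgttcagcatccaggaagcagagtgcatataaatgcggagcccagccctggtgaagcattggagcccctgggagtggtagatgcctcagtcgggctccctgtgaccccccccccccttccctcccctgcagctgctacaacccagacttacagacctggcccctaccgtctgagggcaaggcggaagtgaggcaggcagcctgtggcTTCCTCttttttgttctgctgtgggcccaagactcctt

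Receptors and other surface proteins are given first. Cx3cr1 stood at 4.34, 5.60, 4.57 and 4.01 CPM in the mutant and 0.835, 1.10, 0.758 and 0.611 CPM in the wild-type hearts, a difference of 2.46 ± 0.46 (edgeR adjusted p = 0.0137). Csf1r stood at 7.93, 11.9, 12.5 and 9.64 CPM against 3.15, 4.04, 2.01 and 1.88 CPM, a difference of 1.91 ± 0.42 (edgeR adjusted p = 0.0435). Fcrls, an Fc receptor-like scavenger protein of macrophages and microglia, was at 2.17, 2.45, 3.01 and 2.71 CPM against 0.278, 0.0345, 0.0379 and 0.204 CPM, from 269 reads over the mutants and 12 over the wild-type hearts. Its difference was 4.28 ± 0.62 (edgeR adjusted p = 0.00147), with the 4 mutants within 2.17 to 3.01 CPM. Ptprc was at 0.779, 2.28, 1.75 and 1.38 CPM against 0.139, 0.0345, 0.190 and 0.102 CPM and rose by 3.69 ± 0.61 (edgeR adjusted p = 0.00480). Each of these values is a small number of reads, and the groups did not overlap. Laptm5, a lysosomal protein of blood cells (gene ID 16792), was at 15.6, 20.01, 21.1 and 17.6 CPM against 9.32, 7.14, 7.09 and 6.11 CPM and rose by 1.32 ± 0.19 (edgeR adjusted p = 0.00147). All 4 mutants lay above every wild-type heart for it. Spi1 stood at 2.24, 3.61, 2.86 and 2.59 CPM against 1.07, 0.690, 0.190 and 0.509 CPM and rose by 2.20 ± 0.45 (edgeR adjusted p = 0.0229). Fcgr1, an IgG receptor, was at 0.373, 1.25, 1.11 and 1.002 CPM against 0.0927, 0, 0.152 and 0.0509 CPM and rose by 3.59 ± 0.82 (edgeR adjusted p = 0.0385). Fcgr3, another IgG receptor, was at 1.69, 2.90, 2.19 and 1.71 CPM against 0.556, 0.138, 0.379 and 0.305 CPM and rose by 2.63 ± 0.54 (edgeR adjusted p = 0.0237).

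Called genes were also found in the lists of complement, chemokines and leukocyte actin regulators. In the complement list 2 of 13 genes were called: C1qa at 1.42, 2.20, 3.98 and 2.46 CPM against 0.278, 0.0345, 0.266 and 0.0509 CPM and C1qc at 2.78, 5.02, 7.77 and 4.26 CPM against 0.232, 0.587, 0.190 and 0.0509 CPM, both chains of C1q, with differences of 3.97 ± 0.83 (edgeR adjusted p = 0.0289) and 4.12 ± 0.86 (edgeR adjusted p = 0.0363). In the list of leukocyte adhesion and actin regulators 6 of 18 were called (Cyth4, Myo1f, Lcp1, Itgal, Rac2 and Itgam) and the median was 1.24. Cyth4, an exchange factor for Arf proteins, was at 3.63, 3.53, 4.20 and 3.21 CPM against 1.07, 1.35, 1.40 and 0.815 CPM and rose by 1.64 ± 0.31 (edgeR adjusted p = 0.0135). Myo1f, a myosin of leukocytes, was at 1.83, 3.40, 2.67 and 2.25 CPM against 0.139, 0.380, 0.645 and 0.407 CPM and rose by 2.66 ± 0.50 (edgeR adjusted p = 0.0138). Lcp1, the actin bundler L-plastin, was at 42.1, 45.5, 47.5 and 43.7 CPM against 32.3, 35.8, 36.5 and 33.8 CPM and rose by 0.37 ± 0.08 (edgeR adjusted p = 0.0229), a smaller change at a higher level. Itgal, the alpha chain of the integrin LFA1, stood at 4.51, 7.72, 8.32 and 5.09 CPM against 1.85, 1.48, 1.67 and 1.38 CPM, and Itgam, that of Mac1, at 1.05, 1.08, 2.38 and 1.46 CPM against 0.139, 0.173, 0.114 and 0.102 CPM. Of 16 Fc receptor and ITAM genes 3 were called, Fcrls, Fcgr3 and Inpp5d (the phosphatase SHIP1). Inpp5d stood at 9.79, 13.4, 13.8 and 13.7 CPM against 8.49, 6.18, 5.23 and 7.64 CPM, rose by 0.89 ± 0.16 (edgeR adjusted p = 0.00981), and lies within 10 Mb of Ing5. Of 20 chemokine and cytokine genes 3 were called. Ccl6 was at 1.39, 0.913, 1.45 and 1.04 CPM in the mutants and had 0 reads in every wild-type heart. It was 39.1-fold higher when set against a floor of 3 reads over the 4 wild-type hearts, with a lower 95% exact counting limit of 31.4. That limit pools the reads of a group and leaves out the spread between hearts. Ccl9 was at 0.542, 1.66, 2.23 and 1.002 CPM against 0, 0.173, 0.0379 and 0 CPM, and Ccl2, the monocyte attractant MCP1, at 5.998, 2.41, 6.76 and 6.80 CPM against 2.37, 1.66, 1.71 and 1.99 CPM with a difference of 1.52 ± 0.33 (edgeR adjusted p = 0.0313). Antigen presentation had 2 of 11 genes called, H2-Ab1 of class II at 13.8, 18.1, 8.03 and 14.3 CPM against 3.34, 3.80, 3.91 and 2.95 CPM (1.95 ± 0.31, edgeR adjusted p = 0.00480) and H2-K1 of class I at 8.81, 13.5, 10.2 and 12.6 CPM against 5.19, 6.04, 4.63 and 5.25 CPM (1.09 ± 0.24, edgeR adjusted p = 0.0363). The list median was 0.12, with 7 members above 0 and 4 below. Of the class II pathway, H2-Eb1 (0.31 ± 0.36), Cd74 (0.08 ± 0.53) and H2-DMa (-0.38 ± 0.32) were not called.

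More genes that are best known from myeloid cells were called outside the lists. Msr1, a scavenger receptor, had 145 reads over the mutants and 3 over the wild-type hearts, a ratio of 44.7 with a 95% exact counting interval of 15 to 219. In single mutant hearts it stood at 0.610, 1.62, 2.75 and 0.584 CPM. The counting intervals and limits here cover counting error only, so they are too narrow for the spread between hearts. Fcna, a ficolin of macrophages, had 145 and 7 reads, a ratio of 19.1 (interval 9.06 to 48.5). Stfa1, a cysteine protease inhibitor of a family of close copies, was at 0.407, 0.872, 0.483 and 0.417 CPM in the mutants with 0 reads in the wild-type hearts. It was 17.2-fold higher against the same floor as Ccl6, with a lower 95% exact counting limit of 13.6. The granule genes Mpo and Prtn3 stood at 4.51, 17.3, 7.77 and 4.13 CPM and 2.20, 3.61, 1.56 and 1.54 CPM in the mutants against 2.46, 1.35, 0.948 and 2.09 CPM and 0.603, 0.414, 0.417 and 0.764 CPM. Mutant 2 was highest for both granule genes. Hcls1, Capg, Arhgap25, Lgals3bp and Tnfaip8l2 rose as well, by 0.54 (Capg) to 3.84 (Tnfaip8l2), and Apoe stood at 225, 258, 247 and 252 CPM against 161, 194, 196 and 165 CPM.

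Many of these calls rested on particular hearts. Of the macrophage list 5, 2, 2 and 3 genes were called without mutants 1 to 4 and 2, 2, 1 and 1 without wild-types 1 to 4. Of the leukocyte adhesion list, 6, 1, 2 and 5 were called without mutants 1 to 4 and 1, 1, 2 and 0 without wild-types 1 to 4. Fcrls, Ptprc, Laptm5 and H2-Ab1 kept their calls in all 8 fits, while Csf1r lost its call in each (adjusted p up to 0.172, without wild-type 3). Without Ing5-/- 1 and in the fit of the 8 compared hearts more were called: 8 macrophage genes in each, 8 and 12 leukocyte adhesion genes, 6 and 10 Fc receptor and ITAM genes, and 6 and 8 chemokine and cytokine genes. Cx3cr1 and H2-Ab1 were called with litter as a block. H2-Ab1 did not run with the macrophage list in the Ing5-/- hearts. It stood at 4.13, 6.66, 13.9 and 5.51 CPM in hearts 1 to 4, whose macrophage medians were 2.12, 2.17, 0.29 and 0.62. Gene by gene, the difference between mutant 2 and wild-type 1 of litter 4 had a median of 1.89 over the macrophage list, and that between mutant 3 and wild-type 4 of litter 6 had a median of 2.57.

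Red blood cell genes had positive differences, and 0 were called. All 19 measured members had positive differences, with a median of 1.01, but the per-heart medians were 0.59, 2.15, 0.80 and -0.42 in the mutants and -0.24 to 0.18 in the wild-type hearts. Hbb-y, the embryonic beta globin, stood at 6303, 19510, 7418 and 3141 CPM against 4907, 3563, 4767 and 3804 CPM, so mutant 4 was below every wild-type heart, and its adjusted p was 0.604. Alas2, the erythroid enzyme of haem synthesis, stood at 145, 499, 164 and 77.9 CPM against 111, 74.2, 102 and 76.03 CPM. The list of haem and iron genes (19) had 0 calls and a median of 0.51. With the haemoglobin level as a covariate, 90 genes were called, and 84 of the 135 kept their calls. The part of blood content in the leukocyte differences was otherwise not tested.

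Genes of platelets and clotting rose in part. Of 24 genes 3 were called, with a median of 0.94: A2m, a protease inhibitor, at 7.49, 15.7, 8.32 and 11.6 CPM against 3.71, 2.35, 3.19 and 1.99 CPM, Vwf at 75.6, 147, 126 and 134 CPM against 62.2, 59.6, 60.8 and 67.8 CPM, and F13a1, a clotting factor of platelets and macrophages, at 5.73, 14.5, 11.9 and 5.97 CPM against 2.18, 0.759, 1.40 and 1.27 CPM. Their differences were 1.94 ± 0.25 (edgeR adjusted p = 5.24e-04), 0.95 ± 0.16 (edgeR adjusted p = 0.00915) and 2.77 ± 0.54 (edgeR adjusted p = 0.0271). A2m and Vwf lie within 10 Mb of Ing4, and both kept their calls without each of the 8 hearts, while F13a1 lost its call without mutant 2 or 3 and without each wild-type heart (adjusted p up to 0.114). With litter as a block A2m was called and the adjusted p of Vwf was 0.200. Vwf is also a gene of endothelium. The platelet gene Pf4 stood at 21.04, 36.4, 31.8 and 20.3 CPM against 21.3, 10.6, 9.71 and 14.4 CPM and was not called (adjusted p = 0.516).

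**Figure D3:**
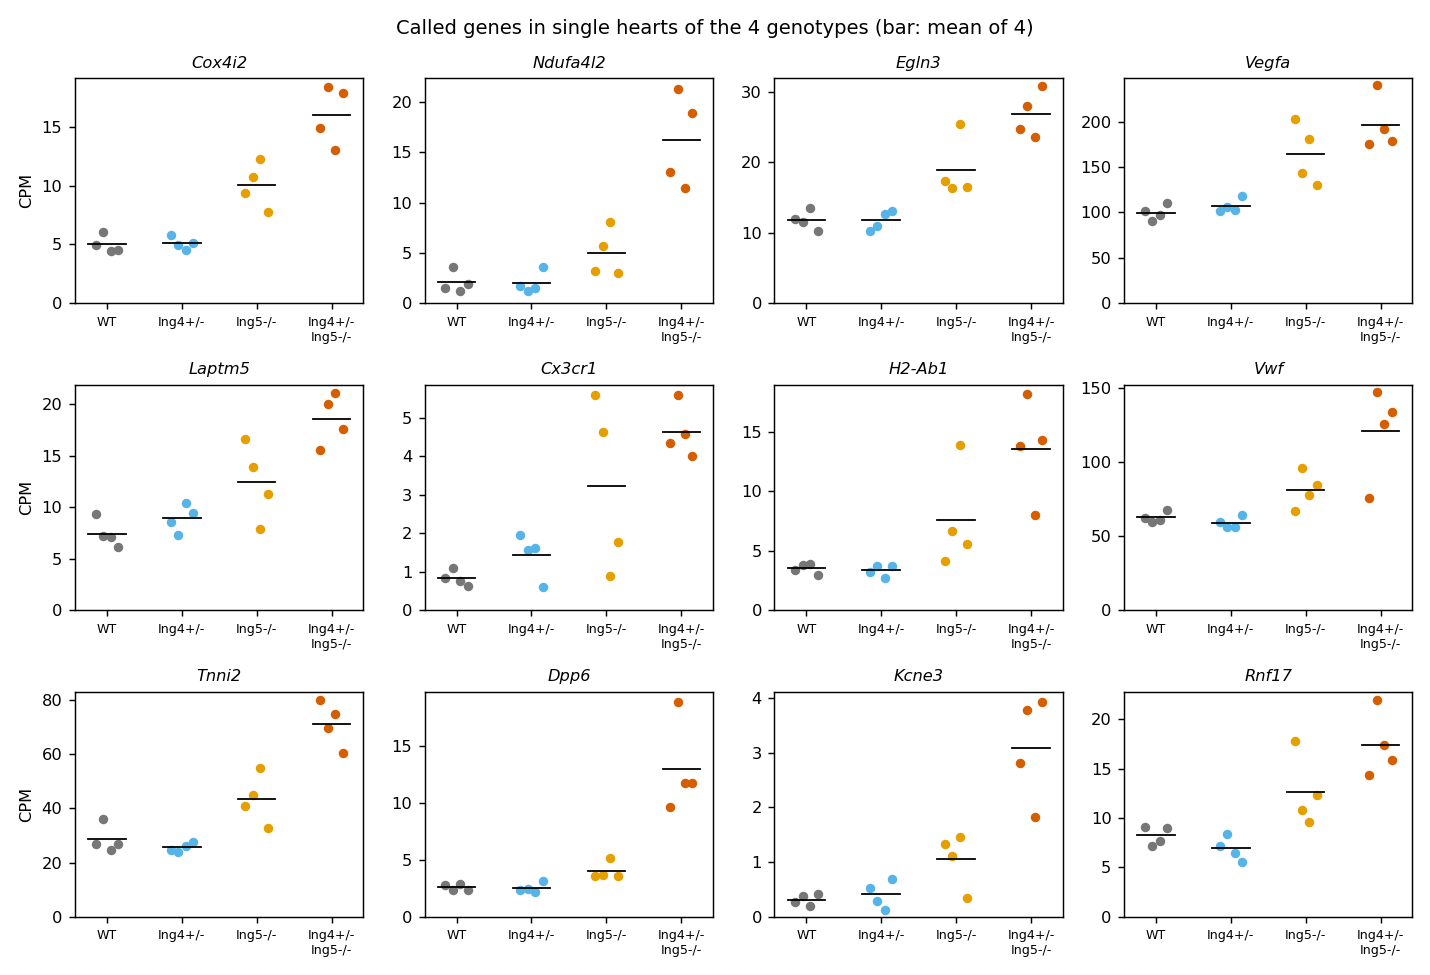
CPM (y axis, from 0) of 12 called genes in each heart of the 4 genotypes, points being hearts and bars the mean of 4. For Cox4i2 the 4 mutant hearts lie between 13.01 and 18.4 CPM, above the wild-type (4.47 to 6.04 CPM) and Ing4+/- hearts.

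Vessel genes were called singly and not as whole lists. Of 20 endothelial genes 0 were called (4 in the fit of the 8 compared hearts), of 17 angiogenic ligands and receptors 2, of 14 mural cell genes 1 and of 15 Notch genes 1, with list medians of 0.22, 0.17, -0.06 and 0.09. The per-heart medians overlapped between the groups in all 4 lists. Pecam1 and Cdh5 had differences of 0.25 ± 0.13 (edgeR adjusted p = 0.498) and 0.26 ± 0.14 (edgeR adjusted p = 0.527). Esm1, a proteoglycan of tip cells, was at 0.678, 1.37, 1.003 and 1.21 CPM against 0.0927, 0.103, 0.114 and 0.102 CPM (109 and 10 reads) and rose by 3.30 ± 0.70 (edgeR adjusted p = 0.0274). Pdgfb, the ligand that recruits mural cells, was at 6.74, 9.92, 10.6 and 11.2 CPM against 5.94, 4.04, 4.44 and 4.89 CPM and rose by 0.99 ± 0.20 (edgeR adjusted p = 0.0229). Notch4, an endothelial Notch receptor, was at 26.4, 36.8, 32.4 and 38.8 CPM against 23.5, 21.99, 24.4 and 22.00 CPM and rose by 0.55 ± 0.11 (edgeR adjusted p = 0.0245). Notch3, a receptor of mural cells, was at 60.2, 72.7, 63.7 and 71.03 CPM against 46.98, 48.8, 47.1 and 51.5 CPM and rose by 0.46 ± 0.10 (edgeR adjusted p = 0.0289). Clec14a, an endothelial lectin, stood at 26.4, 25.2, 24.6 and 31.8 CPM against 15.3, 15.6, 17.1 and 18.99 CPM and rose by 0.69 ± 0.10 (edgeR adjusted p = 0.00223). Bcl6b, an endothelial repressor, rose by 0.60 ± 0.12 (edgeR adjusted p = 0.0146) and Arap3 by 0.28 ± 0.06 (edgeR adjusted p = 0.0436). Clec14a kept its call without each heart, and the others lost theirs without at least 3 of the 8. Esm1, Notch4 and Notch3 were called only in the fit without mutant 1 among these 8 fits.

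Genes for secreted and matrix proteins were called in both directions, and those called higher are given here. Of 20 collagens and 21 matrix proteases and inhibitors 0 were called, with medians of 0.06 and -0.0057, and of 15 integrins 1 fell and 0 rose. Igfbp3, a binding protein for insulin-like growth factors, stood at 47.8, 61.7, 47.9 and 65.1 CPM against 23.4, 28.03, 25.8 and 25.6 CPM and rose by 1.11 ± 0.17 (edgeR adjusted p = 0.00359). Tgfb1, the growth factor TGF-beta 1, was at 47.3, 70.4, 62.9 and 62.4 CPM against 42.5, 46.01, 44.6 and 42.6 CPM, rose by 0.47 ± 0.10 (edgeR adjusted p = 0.0318), and was among the genes called with litter as a block. Loxl2, a lysyl oxidase that crosslinks collagen, was at 292, 363, 299.5 and 391 CPM against 215, 260.3, 215 and 242 CPM and rose by 0.53 ± 0.11 (edgeR adjusted p = 0.0199). Lamb2, a laminin chain, and Tinagl1, a matrix protein, rose by 0.34 ± 0.07 (edgeR adjusted p = 0.0257) and 0.41 ± 0.10 (edgeR adjusted p = 0.0433). Stc2, a secreted glycoprotein induced by stress and hypoxia, rose by 1.06 ± 0.24 (edgeR adjusted p = 0.0386). Sost, a secreted inhibitor of Wnt signalling, rose by 0.60 ± 0.14 (edgeR adjusted p = 0.0461), and Rxfp1, the relaxin receptor, by 0.97 ± 0.18 (edgeR adjusted p = 0.0113). Igfbp3 kept its call without each heart, whereas Sost lost it in each of the 8 fits (adjusted p up to 0.141).

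Muscle and membrane excitability were changed in few genes, most of them not the main isoforms of the heart. Tnni2 (gene ID 21953, chromosome 7: 142441816 to 142444410), the fast skeletal troponin I, stood at 80.2, 69.5, 74.9 and 60.6 CPM against 26.99, 36.2, 24.6 and 26.8 CPM and rose by 1.31 ± 0.14 (edgeR adjusted p = 7.28e-05). Tnnt3, the fast skeletal troponin T, stood at 15.1, 17.2, 19.99 and 13.1 CPM against 9.74, 8.66, 9.06 and 10.1 CPM and rose by 0.80 ± 0.18 (edgeR adjusted p = 0.0394). Cacna1s, the skeletal L-type calcium channel, rose by 0.80 ± 0.18 (edgeR adjusted p = 0.0363), from 5.08 ± 0.304 CPM in wild-type to 8.86 ± 1.09 CPM in mutant hearts. The defining markers of skeletal muscle were at or near 0 in all 8 hearts, as given above. Tnni2 was the 1 gene called among 24 sarcomere genes, while Myh6 had a difference of -0.18 ± 0.11 (edgeR adjusted p = 0.563) and Tnnt2 of -0.19 ± 0.12 (edgeR adjusted p = 0.602). Tnni2 was called in all 8 fits with a heart left out and with litter as a block, whereas Tnnt3 was called in 1 of the 8 and Cacna1s in 0.

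Of 18 potassium channel genes 3 were called higher, each for an accessory subunit, against 0.697% of all genes called higher. Dpp6 (gene ID 13483, chromosome 5: 26817357 to 27727500), which speeds the Kv4 channel, had the lowest p of all genes tested. It stood at 9.59, 18.9, 11.7 and 11.7 CPM against 2.78, 2.31, 2.88 and 2.34 CPM, with mutant 2 highest, and rose by 2.33 ± 0.21 (edgeR adjusted p = 1.18e-05). Kcne3 stood at 2.81, 3.78, 1.82 and 3.92 CPM against 0.278, 0.380, 0.190 and 0.407 CPM and rose by 3.28 ± 0.50 (edgeR adjusted p = 0.00254). Kcne1, the partner of Kcnq1 in the slow repolarising current, stood at 36.3, 40.9, 38.98 and 38.6 CPM against 23.9, 26.6, 26.2 and 22.9 CPM and rose by 0.63 ± 0.14 (edgeR adjusted p = 0.0384). Dpp6 and Kcne3 kept their calls without each heart, and Kcne1 lost its call in each of the 8 fits (adjusted p up to 0.139). Pore subunits were not called, with 0.30 ± 0.18 (edgeR adjusted p = 0.568) for Kcnq1 and 0.55 ± 0.18 (edgeR adjusted p = 0.187) for Kcnd2. Of 19 genes for calcium and sodium channels and calcium handling, 0 were called. P2rx1, an ATP-gated cation channel also found on platelets, rose by 0.94 ± 0.21 (edgeR adjusted p = 0.0322).

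Germline genes were the third group. Many such genes are kept silent in body cells, mostly by promoter methylation and repressive complexes. Not all of those listed were silent in wild-type hearts, where Mov10l1 stood at 54.3 ± 2.61 CPM. Mov10l1 stood at 48.2 ± 7.57 CPM in the mutant hearts and was not called (-0.17 ± 0.17, edgeR adjusted p = 0.767). Of 13 measured germline genes, 4 were called higher, Fmr1nb, Xlr3a, Xlr3b and Ddx4, against 0.697% of all genes called higher. The list median was 1.41, and 11 of the 13 members were above 0. Fmr1nb, a testis antigen gene, was at 3.12, 3.82, 3.98 and 2.75 CPM against 0.325, 0.103, 0.152 and 0.662 CPM, 357 and 27 reads, and rose by 3.52 ± 0.49 (edgeR adjusted p = 9.44e-04). Ddx4, the Vasa helicase of germ cells, was at 9.05, 7.72, 12.2 and 8.47 CPM against 5.47, 2.24, 2.69 and 3.82 CPM and rose by 1.41 ± 0.32 (edgeR adjusted p = 0.0435). Outside the list, Rnf17, a Tudor protein of the piRNA pathway, was at 14.4, 21.96, 17.4 and 15.9 CPM against 9.09, 7.18, 7.66 and 9.01 CPM and rose by 1.08 ± 0.18 (edgeR adjusted p = 0.00501). Sohlh2, a germ cell transcription factor, was at 0.712, 0.955, 1.71 and 0.960 CPM against 0.185, 0.138, 0 and 0.0509 CPM and rose by 3.47 ± 0.64 (edgeR adjusted p = 0.0122). Iho1, a meiotic recombination protein, was at 2.75, 4.73, 3.46 and 3.46 CPM against 1.62, 1.45, 1.63 and 2.14 CPM and rose by 1.08 ± 0.24 (edgeR adjusted p = 0.0323).

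Several of these genes are X-linked or have near copies. Xlr3a was at 6.34, 5.48, 7.80 and 5.97 CPM against 3.57, 0.759, 2.503 and 1.58 CPM and rose by 1.61 ± 0.31 (edgeR adjusted p = 0.0143). Xlr3b was at 10.8, 11.3, 9.88 and 11.98 CPM against 6.35, 1.38, 3.45 and 2.55 CPM and rose by 1.69 ± 0.32 (edgeR adjusted p = 0.0167). Wild-type 1 was the highest wild-type heart for both. Xlr4b was at 4.13, 3.28, 3.83 and 3.34 CPM against 1.11, 0.345, 0.190 and 1.12 CPM and rose by 2.44 ± 0.48 (edgeR adjusted p = 0.0180). Xlr4c was at 1.69, 1.45, 1.82 and 1.88 CPM against 0.742, 0.138, 0.114 and 0.255 CPM and rose by 2.48 ± 0.51 (edgeR adjusted p = 0.0229). Reads may be shared among these copies. AU015836, of unknown function and X-linked, was at 1.39, 2.86, 1.56 and 1.54 CPM against 0.325, 0.380, 0.0759 and 0.458 CPM and rose by 2.57 ± 0.60 (edgeR adjusted p = 0.0433). D1Pas1, a testis DEAD-box gene with close copies on the sex chromosomes, was at 2.71, 4.77, 3.05 and 3.46 CPM against 2.09, 0.587, 0.721 and 0.713 CPM and rose by 1.78 ± 0.38 (edgeR adjusted p = 0.0285). On the X chromosome lay 8 of the 110 genes called higher (7.27%, against 3.54% of all genes tested). With the Y-linked level as a covariate these 8 remained called, with adjusted p of 0.00196 (Fmr1nb) to 0.0269. Fmr1nb and Rnf17 kept their calls without each of the 8 hearts, while Ddx4 was called in 1 of these fits. None of these genes was called with litter as a block (adjusted p of 0.122 for Rnf17 to 0.656 for Ddx4). Gene by gene, the difference between mutant 2 and wild-type 1 of litter 4 had a median of 0.16 over the list, and that between mutant 3 and wild-type 4 of litter 6 a median of 1.16. Within the list Dazl was at -0.51 ± 0.61 (edgeR adjusted p = 0.815) and Sycp3 at 0.37 ± 0.28 (edgeR adjusted p = 0.673).

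Stress genes gave 1 call among the 20 genes of the amino acid response of ATF4 (5 by the DESeq2 Wald test and 3 without the 3 libraries). Vldlr, a lipoprotein receptor, stood at 53.8, 85.5, 57.6 and 69.4 CPM against 35.99, 38.9, 35.99 and 36.3 CPM and rose by 0.86 ± 0.15 (edgeR adjusted p = 0.0120). The list median was 0.47, and 19 of 20 members were above 0, but the per-heart medians were 0.24, 0.91, 0.23 and 0.14, so mutant 2, the heart with the most haemoglobin reads, stood out. Trib3, at 20.7, 74.9, 15.98 and 10.7 CPM against 6.77, 8.21, 8.42 and 3.67 CPM, and Asns, at 71.1, 147, 55.7 and 60.9 CPM against 48.00, 46.4, 44.2 and 42.3 CPM, followed mutant 2 and were not called (2.16 ± 0.64 (edgeR adjusted p = 0.187) and 0.89 ± 0.31 (edgeR adjusted p = 0.286)). Slc7a3, a cationic amino acid transporter, was at 4.27, 11.8, 2.27 and 3.46 CPM against 1.90, 1.07, 0.607 and 1.43 CPM, rose by 2.13 ± 0.46 (edgeR adjusted p = 0.0307), and lost its call without mutant 2 (adjusted p = 0.160) and without wild-type 2, 3 or 4. The lists for the unfolded protein response, chaperones, antioxidant genes and apoptosis held 0 calls. Immediate early genes (19) held 0 calls with a median of 0.16.

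The remaining higher genes joined no group. Selenbp1, a selenium-binding methanethiol oxidase, stood at 35.6, 41.05, 29.9 and 28.00 CPM against 19.4, 19.9, 17.5 and 18.7 CPM and rose by 0.83 ± 0.11 (edgeR adjusted p = 7.67e-04), and its near copy Selenbp2 was at 3.15, 2.74, 2.30 and 2.34 CPM against 1.02, 1.14, 1.40 and 1.02 CPM and rose by 1.19 ± 0.25 (edgeR adjusted p = 0.0237). Serpinb6b, an intracellular protease inhibitor (gene ID 20708), stood at 34.8, 44.2, 40.6 and 41.2 CPM against 26.2, 23.1, 19.8 and 24.6 CPM and rose by 0.78 ± 0.10 (edgeR adjusted p = 4.97e-04). Krt19, a keratin of simple epithelia, stood at 69.2, 87.1, 77.5 and 87.4 CPM against 44.7, 50.01, 53.1 and 48.5 CPM and rose by 0.71 ± 0.12 (edgeR adjusted p = 0.00501). It was the 1 called gene of 21 epicardial genes, whose median was -0.36 and of which 16 were below 0. In this list 10 genes were called in the fit of the 8 compared hearts, 3 without Ing5-/- 1 and 4 without the 3 libraries. Cpa1, a carboxypeptidase, rose by 0.94 ± 0.15 (edgeR adjusted p = 0.00470). Mlph, a linker of melanosomes to Myo5a that lies within 10 Mb of Ing5, was at 2.27, 4.03, 2.23 and 3.34 CPM against 0.742, 1.14, 0.455 and 1.12 CPM and rose by 1.77 ± 0.39 (edgeR adjusted p = 0.0313), whereas Myo5a fell. Muc2, a secreted mucin, was at 0.508, 1.74, 0.743 and 0.835 CPM against 0.185, 0.0690, 0.152 and 0.153 CPM and rose by 2.76 ± 0.64 (edgeR adjusted p = 0.0433). Ctsa, a lysosomal carboxypeptidase, was at 148, 153, 147 and 150.4 CPM against 107, 129, 116 and 125 CPM and rose by 0.33 ± 0.08 (edgeR adjusted p = 0.0464). It and Laptm5 were the 2 called of 28 lysosomal genes, whose median was 0.09. Kbtbd11, Rinl, Exoc3l4, Lacc1, Ankzf1, Trappc6a, Mycbpap and Ndrg2 rose by 0.42 (Mycbpap) to 0.86 (Rinl), and the predicted gene Gm21451 by 0.42 ± 0.09 (edgeR adjusted p = 0.0313). Another predicted gene, 1700001L05Rik, was at 5.12, 8.34, 4.35 and 4.51 CPM against 2.504, 2.17, 2.05 and 3.16 CPM and rose by 1.18 ± 0.26 (edgeR adjusted p = 0.0334). Selenbp1, Serpinb6b, Krt19 and Cpa1 kept their calls without each of the 8 hearts.

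The 25 genes called lower, of which 6 belonged to a list, are given one by one, in an order by known role that is no tested grouping. The first are Hap1 and others best known from nerve cells or vesicle traffic. Hap1 (gene ID 15114, chromosome 11: 100347327 to 100356982), the huntingtin-associated adaptor of vesicle transport, stood at 5.998, 4.11, 5.31 and 4.47 CPM in the mutant and 11.4, 9.91, 12.3 and 11.7 CPM in the wild-type hearts. It fell by a difference of -1.18 ± 0.17 (edgeR adjusted p = 0.00147), with every mutant under the lowest wild-type heart. Abat, which breaks down the transmitter GABA, stood at 52.7, 41.2, 54.5 and 47.5 CPM against 69.5, 79.1, 78.3 and 75.8 CPM (-0.63 ± 0.09, edgeR adjusted p = 0.00147). Myo5a, a myosin motor for organelles, stood at 55.5, 55.2, 58.3 and 62.2 CPM against 75.1, 78.6, 80.2 and 76.03 CPM (-0.42 ± 0.07, edgeR adjusted p = 0.00480). Psd3, an exchange factor for the small GTPase Arf6, stood at 51.5, 47.98, 52.1 and 52.5 CPM against 71.8, 66.4, 61.2 and 68.8 CPM (-0.39 ± 0.09, edgeR adjusted p = 0.0318). Lrrn2, a leucine-rich membrane protein of neurons, stood at 10.4, 5.64, 8.06 and 7.30 CPM against 13.4, 12.7, 17.2 and 14.1 CPM (-0.86 ± 0.17, edgeR adjusted p = 0.0143), and Tagln3, the neuronal transgelin, at 11.2, 6.85, 10.1 and 9.35 CPM against 14.4, 14.2, 14.7 and 15.4 CPM (-0.64 ± 0.14, edgeR adjusted p = 0.0363). Slc24a2, an exchanger of calcium against sodium and potassium, stood at 25.1, 22.1, 21.03 and 27.1 CPM against 36.5, 30.3, 31.3 and 33.4 CPM (-0.46 ± 0.11, edgeR adjusted p = 0.0382). Of the 13 tested genes of neurons and Schwann cell precursors 0 were called and 5 were above 0, and the per-heart medians overlapped (-0.15 to 0.10 in the mutants, -0.02 to 0.10 in the wild-type hearts). The part of neural cells in these falls was not tested.

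Genes of transcription, signalling and the cell cycle come next. Zfhx3, a homeodomain and zinc finger factor whose human gene is linked to atrial fibrillation, stood at 12.1, 14.2, 11.6 and 14.4 CPM against 19.99, 18.98, 23.1 and 23.7 CPM (-0.71 ± 0.12, edgeR adjusted p = 0.00476). Mab21l2, a gene needed for the eye and the ventral body wall, stood at 15.9, 11.6, 14.6 and 18.9 CPM against 20.4, 21.6, 27.3 and 25.5 CPM (-0.64 ± 0.13, edgeR adjusted p = 0.0244). Map3k8, a kinase upstream of ERK, stood at 7.35, 7.80, 5.76 and 8.72 CPM against 12.2, 10.9, 12.3 and 11.4 CPM (-0.66 ± 0.15, edgeR adjusted p = 0.0385). Strip2, of the STRIPAK phosphatase complex, stood at 19.2, 16.6, 21.9 and 19.7 CPM against 28.1, 38.5, 29.3 and 35.4 CPM (-0.76 ± 0.16, edgeR adjusted p = 0.0244). Sesn3, a sestrin that restrains mTORC1, stood at 24.3, 23.9, 26.3 and 28.1 CPM against 36.6, 37.5, 40.4 and 30.9 CPM (-0.51 ± 0.09, edgeR adjusted p = 0.00966). Haus7, a subunit of the augmin complex of the spindle, stood at 35.3, 34.4, 35.8 and 29.8 CPM against 45.6, 46.9, 48.4 and 42.4 CPM (-0.44 ± 0.07, edgeR adjusted p = 0.00501). Nup62cl, an X-linked gene similar to a nuclear pore protein, was at 0.610, 0.955, 1.45 and 1.502 CPM against 3.20, 2.42, 2.77 and 3.36 CPM (-1.38 ± 0.32, edgeR adjusted p = 0.0408). It had the largest fall among the 25, at the lowest level.

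Genes for matrix, adhesion and secreted proteins follow. Itgb8, the integrin chain that activates latent TGF-beta, stood at 4.51, 3.49, 4.42 and 4.63 CPM against 7.42, 9.77, 7.21 and 6.72 CPM (-0.87 ± 0.20, edgeR adjusted p = 0.0382). Frem1, a basement membrane protein of the Fraser complex, stood at 49.3, 57.3, 62.1 and 57.8 CPM against 75.4, 75.6, 76.2 and 81.2 CPM (-0.44 ± 0.08, edgeR adjusted p = 0.0103). Perp, a p53 target that is also a desmosome protein, stood at 68.7, 58.9, 64.3 and 63.6 CPM against 84.3, 82.2, 83.3 and 82.1 CPM (-0.38 ± 0.08, edgeR adjusted p = 0.0245). Scube1, a secreted EGF-domain protein, stood at 27.7, 27.9, 26.98 and 32.8 CPM against 36.3, 36.3, 42.6 and 35.6 CPM (-0.39 ± 0.09, edgeR adjusted p = 0.0482), and Igfbpl1, similar to the binding proteins of insulin-like growth factors, at 94.8, 60.7, 92.8 and 80.6 CPM against 129, 147, 136 and 143 CPM (-0.75 ± 0.15, edgeR adjusted p = 0.0271). Thus of 16 genes of that growth factor axis 1 rose (Igfbp3) and 1 fell (Igfbpl1). Shisa4, a membrane adaptor, stood at 13.3, 10.8, 16.2 and 15.7 CPM against 19.1, 21.2, 22.4 and 17.8 CPM (-0.53 ± 0.12, edgeR adjusted p = 0.0366).

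The last are genes of sugar and lipid use. Ugp2, which makes UDP-glucose for glycogen, stood at 255, 240.3, 246 and 263 CPM against 316, 319.7, 288 and 314 CPM (-0.30 ± 0.06, edgeR adjusted p = 0.0220). Arrdc4, an arrestin-domain protein raised by glucose, stood at 23.8, 17.8, 16.2 and 23.5 CPM against 32.3, 34.2, 33.2 and 29.4 CPM (-0.67 ± 0.15, edgeR adjusted p = 0.0313). Zadh2, a prostaglandin reductase, stood at 62.5, 51.8, 63.1 and 63.7 CPM against 83.7, 81.2, 82.5 and 75.3 CPM (-0.42 ± 0.07, edgeR adjusted p = 0.00501), and Car3, a carbonic anhydrase, stood at 4.64, 3.74, 5.13 and 4.38 CPM against 7.14, 7.35, 9.03 and 7.38 CPM (-0.79 ± 0.18, edgeR adjusted p = 0.0382). Hap1, Abat, Zfhx3, Myo5a, Haus7, Zadh2 and Ing5 kept their calls without each of the 8 hearts, while 9 to 22 genes were called lower in these fits. With litter as a block Arrdc4 and Slc24a2 were the 2 lower genes called.

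**Figure D4:**
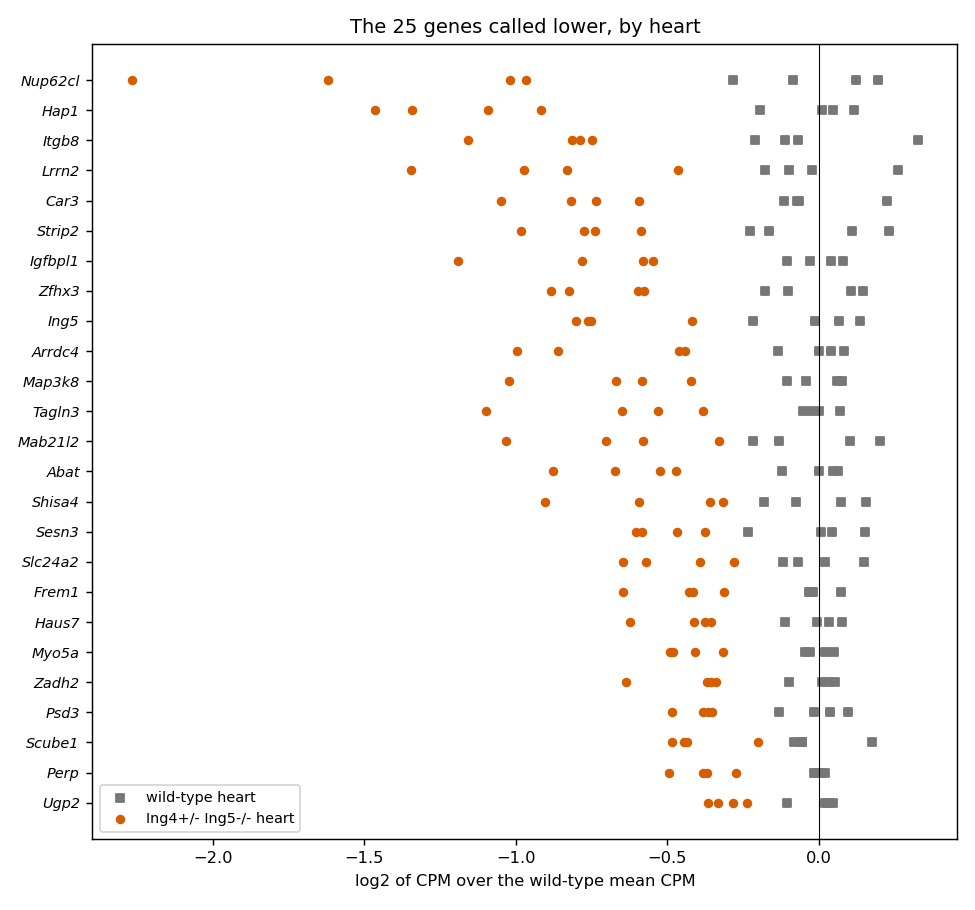
Log2 of CPM over the wild-type mean (x axis) of the 25 genes called lower, in the 4 mutant hearts (circles) and the 4 wild-type hearts (squares). For each gene the circles lie left of all squares, and Nup62cl and Hap1 lie farthest left.

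The same genes were then read in the 8 hearts outside the groups compared. These hearts had entered the low-count filter and the model for the spread, so they were not held out from the calls. Of the 110 genes called higher, 108 were also higher in Ing5-/- than in Ing4+/- hearts, as were 52.8% of all genes tested, and 104 to 108 when each of these 8 hearts was left out. Of the 25 called lower, 23 were lower there (47.2% of all genes tested), and 22 to 24 with a heart left out. In single hearts the median of the 110 genes stood 0.91, 1.24, 1.00 and 1.06 above the wild-type mean in the mutants, 0.57, 0.54, 0.67 and 0.35 above it in the Ing5-/- hearts and 0.02 to 0.11 above it in the Ing4+/- hearts. The Ing5-/- hearts thus lay between the others, with no overlap in either direction. For the 25 lower genes the medians were -0.55, -0.64, -0.57 and -0.46 in the mutants and -0.29, -0.22, -0.26 and -0.38 in the Ing5-/- hearts. The level of the mutant hearts is fixed by the choice of the genes and is given as a description. Ing5-/- hearts 1 and 2 and mutant 1 shared litter 1, and Ing5-/- heart 4 shared litter 7 with mutant 4. Without the library labelled Ing5-/- 1 the counts were 107 of 110 and 24 of 25.

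The groups of genes differed in how they ran across these hearts. The hypoxia-inducible list had medians of 0.50, 0.55, 0.33 and 0.61 in the mutants and 0.35, 0.33, 0.53 and 0.28 in the Ing5-/- hearts, and the 2 genotypes overlapped. The macrophage list had 2.12 and 2.17 in the Ing5-/- hearts 1 and 2, both from litter 1, and 0.29 and 0.62 in the hearts 3 and 4. The germline list showed the same split, with 1.25 and 1.26 in the Ing5-/- hearts 1 and 2 and 0.20 and -0.01 in the hearts 3 and 4, against 1.41, 0.52, 1.82 and 1.32 in the mutants. Red blood cell medians overlapped between all 4 genotypes.

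**Figure D5:**
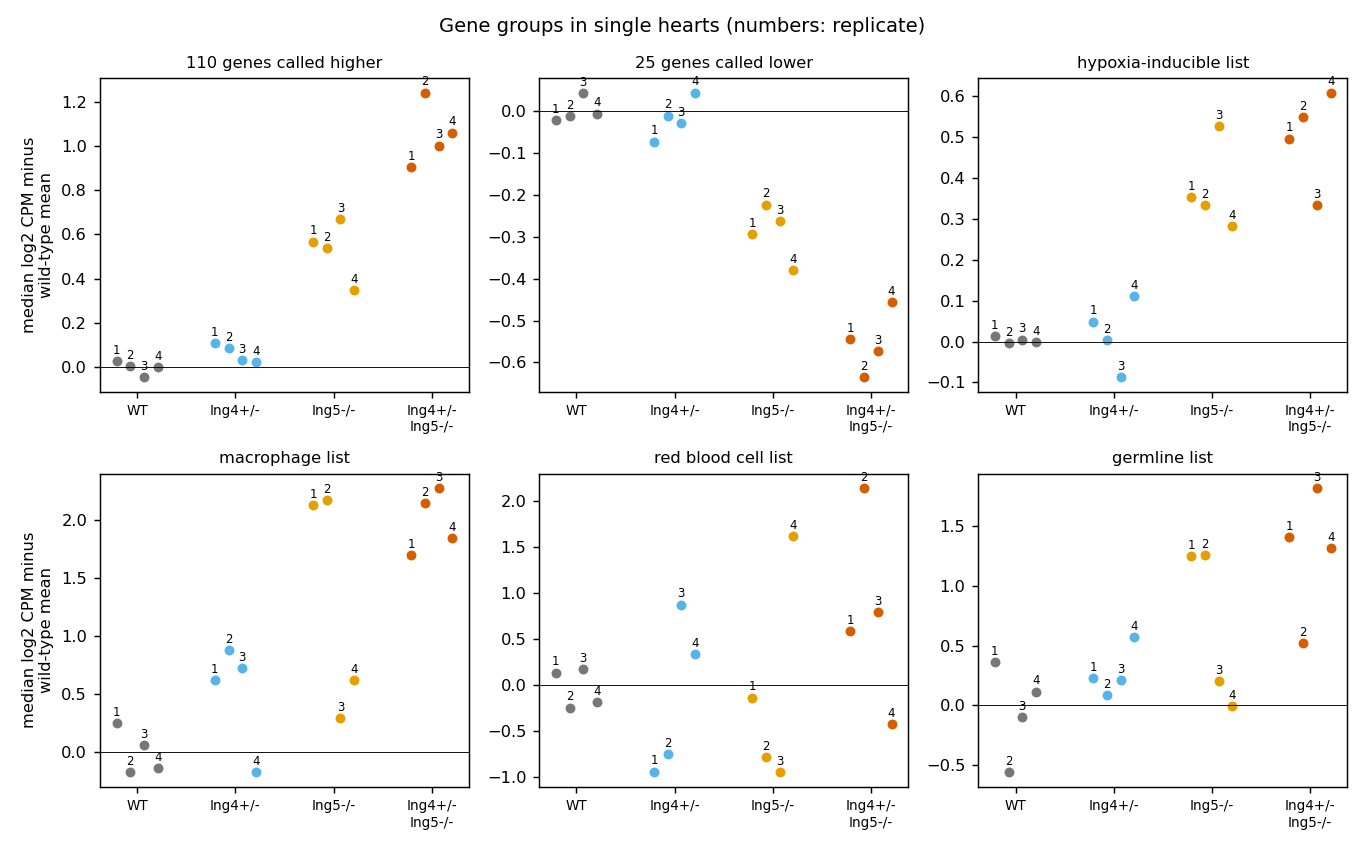
Median of log2 CPM minus the wild-type mean (y axis) in each of 16 hearts by genotype, for the genes called higher, those called lower and 4 lists, with replicate numbers beside the points. Hypoxia-inducible genes stand at 0.28 or more in all Ing5-/- and mutant hearts, and macrophage genes are high in the Ing5-/- hearts 1 and 2 and in all 4 mutants.

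Most of the expressed genome gave no call. Of 65 gene lists 39 held 0 called genes, and 26 held at least 1. In the fit of the 8 compared hearts 16 of these 39 held a call, with at most 4 in a list, and without Ing5-/- 1 it was 11. In 13 lists the medians of the 4 mutant hearts lay above those of all wild-type hearts. In 3 lists they lay below: epicardium, DNA replication (27 genes, median -0.07) and mitosis (24 genes, median -0.11), the last 2 with 0 calls. The margins of these 2 were very narrow. The highest mutant and lowest wild-type hearts stood at -0.0355 and -0.0344 for DNA replication and at -0.0268 and -0.0242 for mitosis. For epicardium they stood at -0.149 and -0.0291. Some of the 13 were also narrow, such as the interferon response (lowest mutant 0.0938, highest wild-type 0.0848). In the other 49 lists the hearts overlapped. Those without calls included ribosomal proteins (30 genes, median 0.11), the proteasome (24, -0.11), RNA splicing (24, 0.04), cardiac transcription factors (19, -0.11), Wnt signalling (26, -0.05), axon guidance (26, -0.09), retinoic acid genes (17, -0.04) and Polycomb and trithorax genes (20, -0.01). Of the 17 genes for ING proteins and MYST complexes Ing5 alone was called. These lists were chosen with earlier results of these data known, and their medians are descriptions.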

How the data were processed

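RNA of 16 mouse embryonic hearts, 4 of each of 4 genotypes, was sequenced, and the libraries were stranded according to the labels. Deposited were raw counts of reads per gene, made with featureCounts on mm10 after bcl2fastq, per the submitters' processing notes (no versions given). No aligner or annotation is given in the sources used here. All 16 single-sample tables equalled the series table. Of 27179 gene IDs, 25275 (93.0%) matched a symbol in RefSeq (GRCm38.p6), and unmatched IDs held 2.08% of the reads.

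The analysis ran in R 4.3.3 and edgeR 4.0.16 (TMM, low-count filter, robust quasi-likelihood fit of 4 group means over 16 libraries) on 15785 genes. Calls are Benjamini-Hochberg adjusted p-values under 0.05. The biological coefficient of variation was 0.159. The spread between hearts exceeded counting error (between hearts of 1 genotype the chi-square per degree of freedom was 9.29 to 77.5), and p-values cover that spread only. Tested on simulated data with 15659 genes, the fit recovered 52.9%, 66.7% and 90.3% of genes changed 1.5-fold, 2-fold and 3-fold. It called 6 of 15463 unchanged genes. The simulated counts were drawn independently for each gene and heart, without effects of litter, sex or cell content and without outlying libraries. These shares are therefore no error rates for the real hearts.

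All called genes could be named: full values for those called lower, up to 4 called members per list by p, and the 12 largest rises outside the lists with a mean of at least 1 CPM. Full values are also given for some other called genes. Among the called genes, 1 is not reported here. From 65 gene lists counts and medians are given. Members and lists were chosen with earlier results of these data known. Tested alternatives were other size factors and filters, DESeq2 1.42.0, limma-voom (limma 3.58.1), fewer hearts, blocks for replicate number and litter, and covariates. A fit without the robust option was chosen after seeing the data. Residuals of hearts with the same replicate number correlated at -0.0263 to 0.0319, so they were not taken as pairs.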

Additional observations from a re-analysis of the deposited data

Results flagged for a closer look

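In groups of 4 hearts, 23 of 400 groups (5.75%) held a heart whose gap to the next passed Dixon's 95% critical value for 4 values, and chance flags about 1 in 20. Mutant 2 was apart for Zadh2 (51.8 CPM, the other mutants 62.5 to 63.7), Ing5 (25.1 CPM against 19.2 to 19.9), Stfa1 (0.872 CPM against 0.407 to 0.483) and AU015836 (2.86 CPM against 1.39 to 1.56). It was also apart in the median of the ATF4 amino acid list (0.913 against 0.139 to 0.241). Mutant 3, of litter 6, was low for Galk1 (113 CPM against 135 to 138), Pgk1 (201 CPM against 240.0 to 245) and Pdk1 (342 CPM against 433 to 443). Mutant 1 was low for Inpp5d (9.79 CPM), Tinagl1 (62.9 CPM) and the complement median (0.469), and mutant 4 was high for Scube1 (32.8 CPM).

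Among wild-type hearts, wild-type 1 was high for D1Pas1 (2.09 CPM) and Msr1 (0.139 CPM, the others at 0), and low for Arap3 (78.0 CPM) and for the median of the unfolded protein response list (-0.256). Wild-type 2 was high for Vldlr (38.9 CPM), Gm21451 (141 CPM) and the antigen presentation median (0.199). Wild-type 3 was high for Car3 (9.03 CPM) and Scube1 (42.6 CPM), and wild-type 4 for Frem1 (81.2 CPM) and Exoc3l4 (6.26 CPM).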

How the results depend on the processing

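The count of 135 genes called (110 higher, 25 lower) moved most with litter as a block, which left 15 (13 and 2), and also with the hearts in the model. It was 465 (306 higher, 159 lower) when only the 8 hearts compared were fitted, 325 (230 and 95) with the DESeq2 Wald test and 78 (61 and 17) with limma-voom. Without Ing4+/- 4, Ing5-/- 1 and mutant 2, the 3 libraries that stood apart, it was 315 (205 and 110), and 90 (78 and 12) once the haemoglobin level was a covariate. With hearts of the comparison left out in turn it ranged from 37 to 122 (27 to 100 higher, 9 to 22 lower). Without Ing5-/- replicate 1, which is in neither group compared but entered the model, it was 321 (215 and 106). The share of calls that were higher was 81.5%, and 65.8%, 67.0% and 65.1% in the fit of 8 hearts, without Ing5-/- replicate 1 and without the 3 libraries. The cause was not tested. The fit with a replicate block made 128 calls, 114 of which it shared with the 135, and the numbers do not pair the hearts. Other size factors and filters, the Y-linked covariate, haemoglobin genes left out and the fit without the robust option gave 133 to 163 calls. Hbb-y changed sign with the haemoglobin covariate (-0.051, edgeR adjusted p = 0.921), as the covariate is made from such genes. At 19753100 to 29660043 reads per heart, genes near 0.1 CPM rest on a few reads.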
